A study of Mus musculus with 2 samples.

Results

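Arterial endothelial cells of the mouse heart were studied in AC8 and WT libraries of sorted cardiac cells. They were chosen by UMIs (unique molecular identifiers, each a tagged RNA molecule) of a few genes: a cell needed at least 2 UMIs summed over the arterial markers Stmn2, Sema3g, Sox17 and Hey1 and at least 2 over the general endothelial genes Pecam1, Cdh5, Egfl7 and Kdr. It also needed no UMI of the leukocyte gene Ptprc, at most 3 UMIs of the fibroblast genes Dcn, Col1a1 and Col3a1, and at most 10% mitochondrial UMIs. These conditions held for 602 of the 10667 deposited cells, 306 of 4867 in the AC8 library and 296 of 5800 in the WT library. Because measured values chose the cells, the levels of these 12 genes describe the selection and are not results.

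The AC8 library came from pooled C57/B6 mice that overexpress adenylyl cyclase 8, an enzyme that makes cyclic AMP, and the series title places the transgene in cardiomyocytes. The WT library came from pooled wild-type littermates of the same strain, and neither pool was treated. Both pools were sorted into CD45+CD31- leukocytes, CD45-CD31- mesenchymal cells and CD45-CD31+ endothelial cells, mixed in equal numbers and run on the 10x Genomics platform, with 1 library per genotype. The number, age and sex of the mice are not given in the sources used here. The differences below therefore compare 2 libraries: the spread between animals is unknown, no test was possible, and every interval covers counting error only. Adcy8 itself had 0 UMIs in arterial cells. With 3 counts as the limit, that leaves room for 6.20 CPM (counts scaled per 1000000 UMIs) in AC8 and 7.56 CPM in WT arterial cells. The cells are not cardiomyocytes, so this gene cannot check the genotype labels here.

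Arterial endothelium lines the vessels that carry blood from the heart's large arteries to its capillaries. In development, VEGF signalling and blood flow turn on Notch signalling and the transcription factor Sox17, and with them the ligand Dll4, the Notch target Hey1 and the membrane ligand Efnb2. Mature arterial cells are coupled by the connexins Gja4 and Gja5, deposit elastic fibre proteins such as fibulins and elastin, and hold high Klf2 and Klf4 under steady flow. Capillary endothelium of the heart instead specialises in exchange, with the water channel Aqp1, the carbonic anhydrase Car4 and the lipoprotein lipase anchor Gpihbp1.

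The upstream sequences of 3 genes that marked these cells beside the selection genes are shown because Gja4, Gja5 and Fbln5 were all high in arterial cells. They are the 250 bases before a RefSeq start of each gene, 5′ to 3′ on the gene's own strand (build GRCm38.p6, the assembly called mm10). A pair of short motifs was searched on both strands: TGGGAA, the core bound by the Notch partner Rbpj, and ACAAT, the core bound by Sox factors. Capitals mark the matches.
Gja4 (chr4:127314040-127314289, minus strand): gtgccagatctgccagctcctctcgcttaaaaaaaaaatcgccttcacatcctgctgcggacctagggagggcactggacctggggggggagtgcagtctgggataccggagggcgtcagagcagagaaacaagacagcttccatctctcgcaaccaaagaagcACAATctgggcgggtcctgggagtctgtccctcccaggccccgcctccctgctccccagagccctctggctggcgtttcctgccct
Gja5 (chr3:97032152-97032401, plus strand): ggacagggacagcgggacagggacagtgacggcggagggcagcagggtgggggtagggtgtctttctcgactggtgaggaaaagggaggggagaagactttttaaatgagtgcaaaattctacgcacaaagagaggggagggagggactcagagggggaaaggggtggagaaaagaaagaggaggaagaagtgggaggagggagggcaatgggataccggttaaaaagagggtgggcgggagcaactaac
Fbln5 (chr12:101819120-101819369, minus strand): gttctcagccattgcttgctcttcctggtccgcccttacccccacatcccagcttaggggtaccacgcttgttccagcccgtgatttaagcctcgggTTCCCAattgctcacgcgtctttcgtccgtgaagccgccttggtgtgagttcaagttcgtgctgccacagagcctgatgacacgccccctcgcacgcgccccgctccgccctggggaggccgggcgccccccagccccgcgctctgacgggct
Gja4 held ACAAT on its own strand 86 bases before the start, Fbln5 held TGGGAA on the opposite strand (printed as TTCCCA) 153 bases before the start, and Gja5 held neither in this window. Fbln5 has a second RefSeq start, and the window before it (chr12:101818485-101818734) held neither. The search covered 7 genes in 11 windows, of which the sequences of these 3 genes are shown. Of the genes not shown, Pcsk5 held a match, Nebl held matches in some of its windows only, and Vegfc and Glul held neither motif. Of 32851 such windows in the table, 21.6% held TGGGAA and 27.7% held ACAAT, so a match is common and is a description only.

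The selected cells carried few marker UMIs each. The marker sum was exactly 2 in 132 of 306 AC8 cells (43.1%) and 127 of 296 WT cells (42.9%), its median was 3 in both libraries and its highest value 14 in both. Stmn2, a microtubule regulator best known from neurons, had 899 CPM in AC8 and 867 CPM in WT arterial cells, and the transcription factor Sox17 had 831 CPM in AC8 and 764 CPM in WT. Sema3g, a secreted semaphorin, had 294 CPM in AC8 and 338 CPM in WT, and the Notch target Hey1 had 393 CPM in AC8 and 565 CPM in WT. Of the 4 markers, 1 was detected in 91 AC8 and 87 WT cells, 2 in 138 AC8 and 141 WT, 3 in 59 AC8 and 57 WT, and all 4 in 18 AC8 and 11 WT cells. Among the selection genes, Hey1, Dcn, Cdh5 and Kdr were lower in AC8 beyond counting error. Dcn was at 99.2 CPM against 171 CPM in WT, Cdh5 at 1257 CPM against 1477 CPM and Kdr at 1087 CPM against 1235 CPM. The endothelial gene Egfl7 was higher, at 1589.5 CPM against 1127 CPM in WT. The arterial cells held 483787 UMIs in AC8, with a median of 1333.5 per cell and a range of 506 to 7259, and 396767 in WT, with a median of 1171.5 and a range of 501 to 4301.

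**Figure D1:**
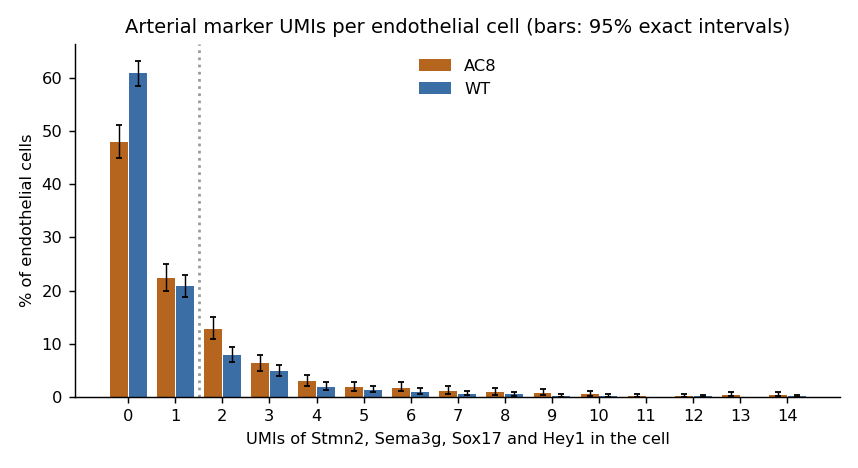
Share of endothelial cells (%) by the number of UMIs of the 4 arterial markers in the cell, AC8 left of WT, with exact 95% intervals. Cells right of the dotted line, with 2 or more, are the arterial cells: 29.6% of AC8 and 18.4% of WT endothelial cells.

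Arterial cells made up a larger share of the endothelial cells in the AC8 library. Of the cells that met every condition but the arterial one, 306 of 1033 in AC8 (29.6%, exact Clopper-Pearson 95% interval 26.9 to 32.5) and 296 of 1612 in WT (18.4%, 16.5 to 20.3) were arterial, a difference of 11.3 percentage points (7.86 to 14.7). Depth moves with this share, since AC8 endothelial cells had a median of 1074 UMIs and WT endothelial cells 887, and a deeper cell reaches 2 marker UMIs more often. With every cell thinned to 500 UMIs before selection the shares were 89 of 809 in AC8 and 98 of 1357 in WT, 3.78 points apart (1.22 to 6.49). With cells of 1000 UMIs or more thinned to 1000, they were 149 of 559 (26.7%) in AC8 and 119 of 610 (19.5%) in WT, 7.15 points apart (2.20 to 12.1). Leaving out each marker in turn gave differences of 6.49 points without Sox17, 7.47 without Stmn2, 9.74 without Hey1 and 10.3 without Sema3g, all higher in AC8. How the sort, the loss of cells in dissociation and the pooling shaped this share was not tested.

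Of the arterial genes outside the selection that were read over all endothelial cells, more were higher than lower in AC8. Gja4 stood at 77.5 CPM in the 1033 AC8 cells, against 47.6 CPM in the 1612 WT cells, a ratio of 1.63 (1.20 to 2.22). The elastic fibre gene Fbln5 was higher at 166 CPM in AC8 against 95.1 CPM in WT. The taurine transporter Slc6a6, which is not on the arterial list described below, was at 886 CPM in AC8 against 496 CPM in WT. Some were lower. Dll4 stood at 143 CPM in AC8 against 191 CPM in WT, and the same order held for the retinol carrier Rbp7, at 544 CPM in AC8 against 657 CPM in WT, and Vegfc, at 82.1 CPM in AC8 against 107 CPM in WT. Gja5 was at 31.2 CPM in AC8 and 22.9 CPM in WT, with a ratio interval of 0.855 to 2.18 that holds equality.

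The label was then checked against 30 other arterial genes, listed with earlier results of these data known. Of these, 26 had at least 20 UMIs over the 2 arterial sums. All 26 were higher in arterial than in other endothelial cells of both libraries. Other endothelial cells are those with 0 marker UMIs (496 AC8, 981 WT). This filter, used for every list, drops genes that are low in arterial cells, so it favours such a count. Cxcr4, dropped by it, was lower in arterial cells of both libraries, at log2 ratios of -0.55 in AC8 and -0.42 in WT. Over the 4970 genes with at least 30 UMIs in both sets, 29.6% were higher and 30.2% lower in both libraries. The selection used this contrast, so the counts describe the cells. The list's median log2 ratio, on a log2(CPM + 20) scale as all log2 ratios here, was 0.84 in AC8 and 1.27 in WT. Of 16 measured capillary genes, 13 were lower in both libraries and 0 higher, with medians of -0.48 in AC8 and -0.59 in WT. Of 9 measured venous genes, 3 were higher and 3 lower in both libraries, and Ackr1 and Lrg1 had 0 UMIs, under the limit of 3 counts given above. Of 3 measured endocardial genes, 1 was higher and 2 lower in both. The filter also dropped Npr3 and Plvap, which had 0 and 1 UMIs in arterial and 15 and 29 in other endothelial cells of AC8. Emcn, also a capillary and venous gene, had 554 CPM in AC8 and 638 CPM in WT arterial cells, against 811 CPM in AC8 and 851 CPM in WT other endothelial cells, and Cytl1 had 5 UMIs in AC8 and 12 in WT. The arterial genes that passed the filter went with the label, while venous genes did not separate these cells, and capillary RNA was common. A UMI of Car4, Rgcc or Gpihbp1 was present in 69.6% of AC8 and 78.4% of WT arterial cells, and in 81.7% of AC8 and 89.7% of WT other endothelial cells.

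Several arterial genes were graded over the marker sum rather than divided at its threshold. With sums of 0, 1, 2, 3 or 4, and 5 or more, Gja4 stood at 20.1, 45.5, 91.7, 189 and 204 CPM in AC8 and at 10.9, 52.2, 79.2, 85.5 and 257 CPM in WT. Gja5 stood at 3.66, 28.0, 36.7, 60.7 and 93.1 CPM in AC8 and at 3.26, 8.69, 33.0, 78.4 and 153 CPM in WT over the same 5 sums. Fbln5, which organises elastic fibres, stood at 36.6, 129.6, 165, 256 and 558 CPM in AC8 and at 28.3, 43.5, 205, 299 and 419.5 CPM in WT. All 3 genes were highest in the cells with the most markers. Cells just outside the threshold, with 1 marker UMI, had more of each than cells with 0. Other arterial genes did not follow the sum in AC8. Cxcl12 stood at 3568, 4676, 5362, 4759 and 3060 CPM there, lowest in the cells with the most markers, and Dll4 at 139, 140.1, 189.5, 94.4 and 157 CPM.

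Aqp1, Car4, Fabp4 and Rgcc were lowest in the cells with the most markers, though not all went down at each step. Aqp1 stood at 952, 497, 208, 249 and 87.3 CPM in AC8 and at 1818, 1124, 620.3, 463 and 181 CPM in WT. Car4 stood at 463, 385, 269, 142 and 46.5 CPM in AC8 and at 519, 417, 251, 92.6 and 76.3 CPM in WT. Fabp4, which carries fatty acids inside the cell, was at 13335 CPM with no marker UMI and 6166 CPM with 5 or more in AC8, and at 19778 and 10183 CPM in WT. Rgcc in AC8 stood at 950.3, 1016, 1094, 836 and 413 CPM, and so was highest at a sum of 2. Arterial cells with a sum of 2 thus still held capillary RNA. Cells with 5 or more marker UMIs were also the deepest, with medians of 1923 UMIs in AC8 and 1551.5 in WT, against 899 in AC8 and 822 in WT for cells with 0.

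**Figure D2:**
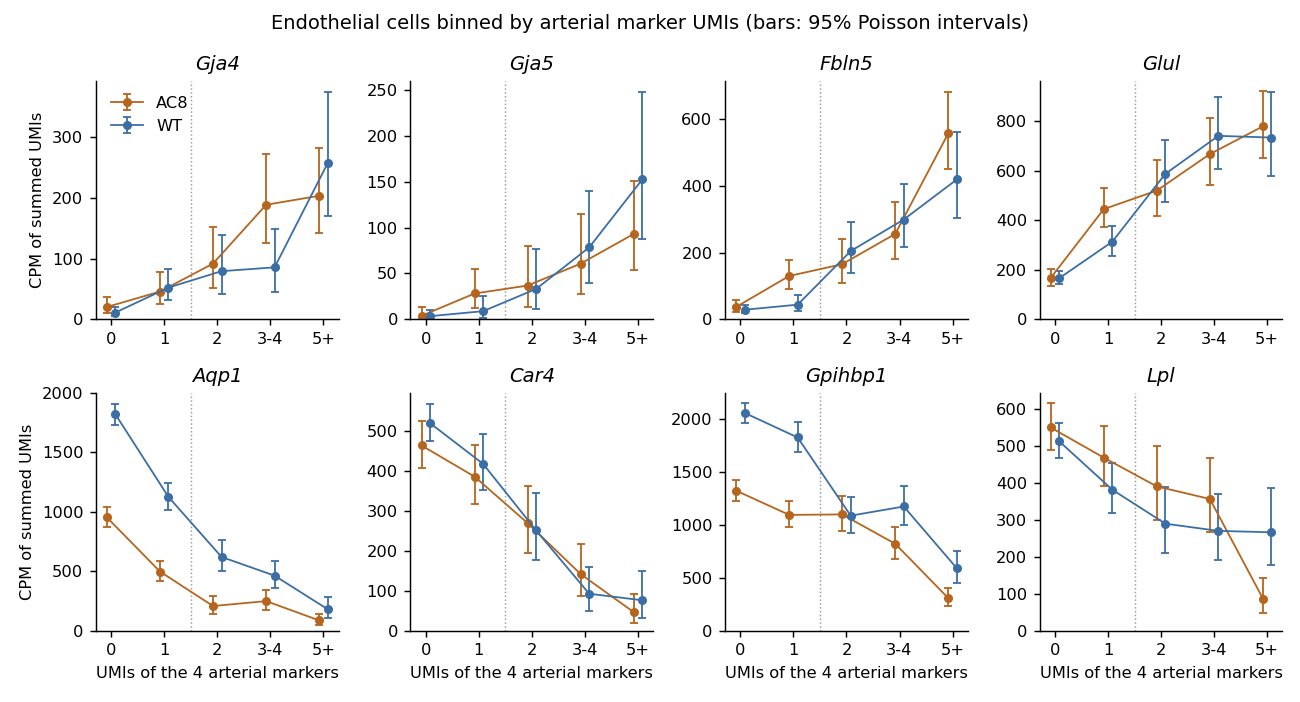
Summed level (CPM, linear axes from 0) of 4 arterial genes (top) and 4 capillary genes (bottom) in endothelial cells grouped by UMIs of the 4 arterial markers, for AC8 and WT, with exact 95% Poisson intervals. The dotted line marks the threshold of 2; Gja4 in AC8 goes up over the 5 groups to 204 CPM while Car4 goes down to 46.5 CPM.

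Set against the other endothelial cells of their own library, 66 of 5030 genes (1.31%) were at least 2-fold higher in arterial cells of both libraries, and 17 of 6749 (0.252%) at least 2-fold lower. The selection acted on this same contrast, so these genes describe the cells and test nothing. Pcsk5, a proprotein convertase, stood first with 141 CPM in arterial and 1.83 CPM in other endothelial cells of AC8, and 189 and 6.53 CPM in WT; the AC8 value for other cells is 1 UMI. Fbln5 had 333 against 36.6 CPM in AC8 and 295 against 28.3 CPM in WT. Nebl, which encodes the actin-binding protein nebulette, had 149 against 12.8 CPM in AC8 and 159 against 6.53 CPM in WT. Both genes were detected in many arterial cells, Fbln5 by 90 AC8 and 73 WT cells and Nebl by 53 AC8 and 46 WT cells.

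The growth factor gene Vegfc had 163 against 25.6 CPM in AC8 and 257 against 47.9 CPM in WT. Glul, the enzyme that makes glutamine, had 657 against 167 CPM in AC8 and 680.5 against 165 CPM in WT, about 4-fold in both (ratios of 3.95 in AC8 and 4.11 in WT). Gja5 was low in cells without marker UMIs, with 64.1 against 3.66 CPM in AC8 and 80.7 against 3.26 CPM in WT, though AC8 cells with 1 marker UMI held 8 of the 41 Gja5 UMIs of AC8 endothelial cells and such WT cells 3 of the 38. Clu, the secreted chaperone clusterin, differed by 5.70-fold in AC8 and 25.7-fold in WT, with 121 CPM in other endothelial cells of AC8 and 11 UMIs in all of those of WT.

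Of the 12 genes that stood highest, 3 are genes of mural cells, the smooth muscle cells and pericytes that wrap vessels. Acta2 UMIs lay in 19 AC8 and 11 WT cells, Tagln UMIs in 16 AC8 and 10 WT cells and Rgs5 UMIs in 30 AC8 and 65 WT cells. Of 11 measured mural genes, 11 were higher in arterial cells of both libraries, and their summed level was 1259 CPM in arterial and 196 CPM in other endothelial cells of AC8, and 1946 and 483 CPM in WT. Myh11, a defining smooth muscle gene, had 68 UMIs in AC8 and 40 in WT arterial cells. Cnn1, another smooth muscle gene, had 1 UMI in AC8 and 0 in WT arterial cells. It was also low in cells without endothelial UMIs, at 6.49 CPM in AC8 and 7.20 CPM in WT. Cells with 2 or more mural UMIs or a UMI of 6 leukocyte genes were then left out. The log2 ratio of Acta2 turned to -0.34, that of Tagln to -0.29 and that of Rgs5 to 0.47. Acta2, Tagln and Rgs5 are among the mural genes that this filter counts, so their fall was set by the filter. The other 9 are not counted by it, and each stayed at 1.30 or more. Cox4i2, a subunit of cytochrome c oxidase found in lung and in mural cells, had the lowest of these 9, 1.30, against 1.90 with all cells; each value is from the library with the smaller difference.

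The genes lower in arterial cells were led by capillary genes. Aqp1 had 178 CPM in arterial against 952 CPM in other endothelial cells of AC8 and 449 against 1818 CPM in WT, ratios of 0.187 in AC8 and 0.247 in WT. Car4 had 151 against 463 CPM in AC8 and 149 against 519 CPM in WT. Adm, the vasodilator peptide adrenomedullin, had 10.3 against 53.1 CPM in AC8 and 15.1 against 63.1 CPM in WT. Cxcl9, a chemokine induced by interferon gamma, had 22.7 against 69.6 CPM in AC8 and 20.2 against 138 CPM in WT. The transcription factor gene Tshz2 and Trp53i11 were also lower, with ratios of 0.386 and 0.370 in AC8 and 0.398 and 0.191 in WT.

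The other 6 of the 12, Ccl2, Ccl3, Ccl4, Rgs1, Apoe and Plaur, are expressed by leukocytes, chiefly macrophages. Summed levels of 13 leukocyte genes besides Ptprc were 1796 CPM in arterial and 6703 CPM in other endothelial cells of AC8, and 1046 and 1839 CPM in WT. Cells without endothelial UMIs held 24839 CPM of them in AC8 and 16324 CPM in WT. Without the cells that carried mural or leukocyte UMIs, Rgs1 and Ccl3 were higher in arterial cells, at log2 ratios of 0.25 and 0.24. Even with all cells kept, the arterial UMIs of each lay in 3 AC8 cells and 1 WT cell. These 2 values therefore rest on very few UMIs. The part of other cells' RNA in these 6 genes was not tested further.

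**Figure D3:**
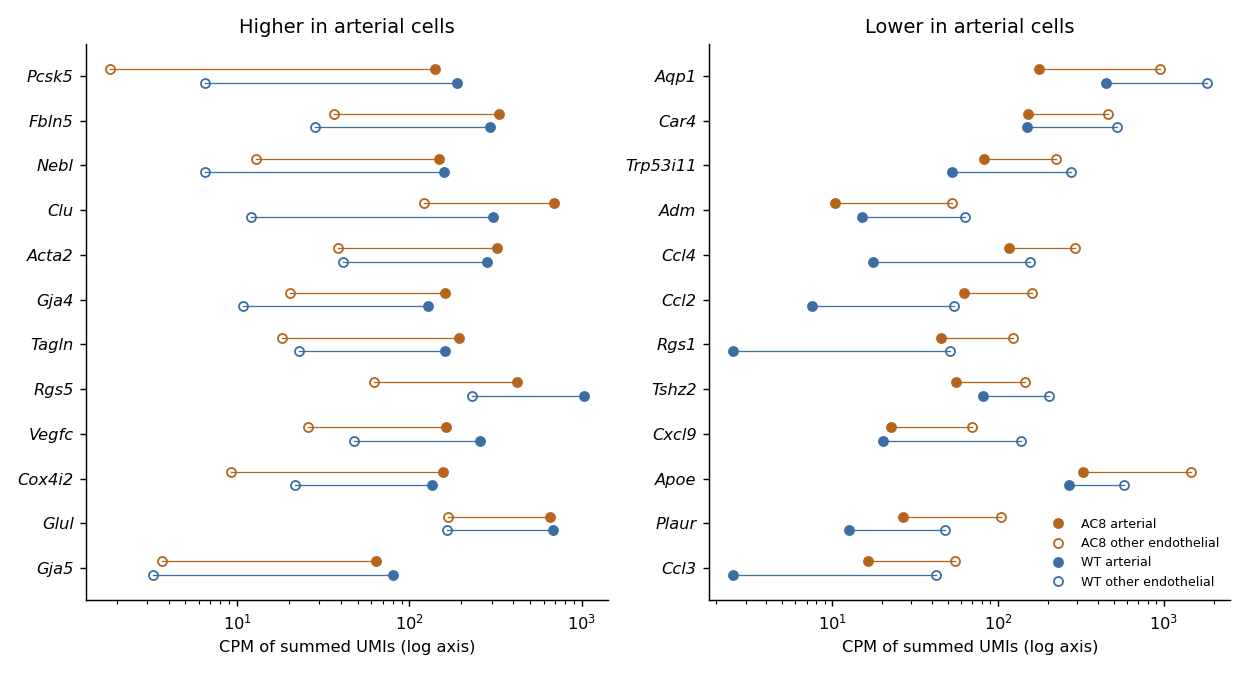
Summed level (CPM, log axis) of the 12 genes most raised and the 12 most lowered in arterial (filled) relative to other endothelial cells (open), with AC8 above WT for each gene. Aqp1 is at 178 CPM in arterial and 952 CPM in other cells of AC8.

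Immediate-early genes, which cells switch on within minutes of a stimulus, were higher in arterial cells throughout the list. All 20 measured members (Fos, Jun, Egr1 and others) were above other endothelial cells in both libraries, with median log2 ratios of 0.61 in AC8 and 0.89 in WT. Fos had 5405 CPM in arterial against 2689.6 CPM in other endothelial cells of AC8 and 5699 against 2683 CPM in WT. A list of 17 genes known to respond to tissue dissociation, many of them the same, was also higher in both libraries for 17 of 17. The selection acted on this contrast too, so these counts are descriptions. Other cells were also matched to them in UMI total, which gave medians of 1188 UMIs for the matched and 1333.5 for the arterial cells in AC8, so that match stayed shallower, and 1171.5 for both in WT. Against these cells the immediate-early medians were 0.47 in AC8 and 0.78 in WT, again with 20 of 20 higher. The flow-induced factor Klf2 had 5391 against 3587 CPM in AC8 and 5447 against 3303 CPM in WT. Klf4 had ratios of 1.77 in AC8 and 1.91 in WT, and both factors also belong to the dissociation response, so flow and handling cannot be told apart here.

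Gja4 or Gja5 was detected in 62 of 306 AC8 arterial cells (20.3%, 15.9 to 25.2) and 58 of 296 WT arterial cells (19.6%, 15.2 to 24.6), against 10 of 496 AC8 (2.02%) and 11 of 981 WT (1.12%) other endothelial cells. With every cell thinned to 1000 UMIs, Gja4 was detected in 11.1% of 234 AC8 and 10.8% of 185 WT arterial cells, which left out 72 AC8 and 111 WT cells as too shallow (unthinned 16.7% in AC8 and 13.5% in WT). Among leukocytes, which should lack it, the shares were 0% of 767 in AC8 and 0.187% of 536 in WT, at unthinned medians of 2584 UMIs in AC8 and 1722 in WT (the 0 allows up to 0.391%). Connexin RNA was thus detected in a minority of the arterial cells at this depth.

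Cells with a Gja5 UMI stood at the arterial end of the set. They numbered 23 of 306 in AC8 (7.52%, 4.82 to 11.1) and 24 of 296 in WT (8.11%, 5.26 to 11.8), against 2 of 496 AC8 and 3 of 981 WT other endothelial cells. Fbln5 had 759 CPM with Gja5 and 285 CPM without it in AC8, and 555 CPM with Gja5 and 266 CPM without it in WT. Mgp, an inhibitor of calcification in artery walls, had 799.8 CPM with Gja5 and 193 CPM without it in AC8, and 1691 CPM with Gja5 and 165 CPM without it in WT. Elastin itself, Eln, had 144 CPM with Gja5 and 73.6 CPM without it in AC8, and 505 CPM with Gja5 and 58.8 CPM without it in WT. These 3 matrix genes of larger arteries were higher in Gja5 cells of both libraries. Mgp and Eln are not specific to endothelium here. Cells without endothelial UMIs held 2608 CPM of Mgp in AC8 and 3145 CPM in WT, against 254 and 318 CPM in all arterial cells. For Eln the values were 238 CPM in AC8 and 342 CPM in WT, against 80.6 and 103 CPM. The part of other cells' RNA in these values was not tested.

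Some capillary genes were lower in the same cells. Fabp4 had 4245 CPM with Gja5 and 9519 CPM without it in AC8, and 6234 CPM with Gja5 and 13723 CPM without it in WT. Gpihbp1 had 308 CPM with Gja5 and 782 CPM without it in AC8, and 353 CPM with Gja5 and 1058 CPM without it in WT. Lpl, lipoprotein lipase, had 61.5 CPM with Gja5 and 297 CPM without it in AC8, and 75.7 CPM with Gja5 and 299.6 CPM without it in WT. The Gja5 cells were deeper, with median UMI totals of 1984 in AC8 and 1537 in WT, against 1323 in AC8 and 1150 in WT without Gja5, and each value in them rests on few cells. A UMI of Car4, Rgcc or Gpihbp1 was still present in 11 of the 23 AC8 and 12 of the 24 WT cells.

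Between genotypes, 42 of 5040 genes (0.833%) were at least 2-fold higher and 23 (0.456%) at least 2-fold lower in AC8 than in WT arterial cells, and the median log2 ratio of all was -0.01. The 12 highest and 12 lowest log2 ratios that met a fixed level and cell count are described next. Nts, the peptide neurotensin (chr10:102481756-102490486, build mm10), had 101 CPM in AC8 arterial cells, against 10.1 CPM in WT arterial cells, a ratio of 10.0 (95% interval 3.68 to 38.3). Its UMIs lay in 22 AC8 and 4 WT cells, and other endothelial cells had 86.1 CPM in AC8 and 74.0 CPM in WT. WT arterial cells thus stood below the other 3 sets. Ccn3, a matricellular protein gene, had 186 CPM in AC8 arterial cells, against 47.9 CPM in WT arterial cells, in 29 AC8 and 13 WT cells. In other endothelial cells Ccn3 had 9.15 CPM in AC8 and 10.9 CPM in WT, and leaving out cells with mural or leukocyte UMIs gave it a log2 ratio of 2.34, against 1.60 with all cells.

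Clu (chr14:65968483-65981547) had 688 CPM in AC8 arterial cells, against 307 CPM in WT arterial cells, a ratio of 2.24 (95% interval 1.81 to 2.78), in 98 AC8 and 55 WT cells. It was higher in AC8 among other endothelial cells too, at a ratio of 10.1 (5.29 to 21.2). Bnip3, a mitophagy receptor induced in hypoxia, had 186 CPM in AC8 arterial cells, against 63.0 CPM in WT arterial cells, in 71 AC8 and 23 WT cells, a ratio of 2.95 (95% interval 1.88 to 4.80). In other endothelial cells its ratio was 1.11 (0.723 to 1.69), an interval that holds equality. Ckb, the brain-type creatine kinase, had 351 CPM in AC8 arterial cells, against 126 CPM in WT arterial cells, a ratio of 2.79 (95% interval 2.02 to 3.90).

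Pi16, a peptidase inhibitor gene, had 306 CPM in AC8 arterial cells, against 106 CPM in WT arterial cells, a ratio of 2.89 (95% interval 2.04 to 4.17). Fibroblasts express it strongly in the heart, and cells without endothelial UMIs had 1233 CPM in AC8 and 1647 CPM in WT, the opposite order. Ccrl2, a chemokine receptor-like gene, had 78.5 CPM in AC8 arterial cells, against 12.6 CPM in WT arterial cells, but its log2 ratio was 0.44 without the cells holding mural or leukocyte UMIs, against 1.60 with them. The last 5, Zfp68, Ccnb1ip1, Saysd1, Ninj1 and Mif4gd, had ratios of 4.26, 3.13, 3.63, 2.93 and 3.51, each from 5 to 14 UMIs in WT.

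Id1 (chr2:152736251-152737410), an inhibitor of helix-loop-helix factors and a direct target of BMP signalling, had the most UMIs of the 12. It had 473 CPM in AC8 arterial cells, against 1159 CPM in WT arterial cells, a ratio of 0.408 (95% interval 0.347 to 0.479), in 136 AC8 and 198 WT cells. With every cell thinned to 1000 UMIs, it was detected in 35.0% of AC8 and 58.9% of WT arterial cells, against 1.04% of AC8 and 2.43% of WT leukocytes, which should lack it. Unthinned, the arterial shares were 44.4% in AC8 and 66.9% in WT. In other endothelial cells it had 372 CPM in AC8 and 746 CPM in WT, a ratio of 0.498 (0.424 to 0.583), so it was lower in AC8 in both sets. Aqp1 was also lower in both sets, with 178 CPM in AC8 arterial cells, against 449 CPM in WT arterial cells, a ratio of 0.396 (95% interval 0.303 to 0.515), but its log2 ratio was -0.04 when every cell was thinned to 500 UMIs before selection.

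Rgs5, a mural gene, had 424 CPM in AC8 arterial cells, against 1028 CPM in WT arterial cells, in 30 AC8 and 65 WT cells. Of 11 measured mural genes, 8 were lower in AC8 arterial cells, Rgs5 included, and the median log2 ratio of the 11 was -0.66. The other 3, Acta2, Tagln and Myh11, had ratios of 1.14, 1.20 and 1.39, each with an interval that holds equality. The mural genes thus did not all move with Rgs5. Rgs5 was lower in AC8 cells without endothelial UMIs as well, at 89.1 CPM against 273 CPM in WT. A UMI of any mural gene was present in 16.0% of AC8 and 29.1% of WT arterial cells.

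Stc1, the secreted glycoprotein stanniocalcin, had 16.5 CPM in AC8 arterial cells, against 70.6 CPM in WT arterial cells, from 8 UMIs in AC8 and 28 in WT. In other endothelial cells its order was the opposite, with 20.1 CPM in AC8 and 5.44 CPM in WT. Tnfaip3, a brake on NF-kB signalling, had 22.7 CPM in AC8 arterial cells, against 75.6 CPM in WT arterial cells, in 8 AC8 and 12 WT cells, and its log2 ratio turned to 0.41 among cells with 3 or more marker UMIs. Acvr2a, an activin receptor, had 22.7 CPM in AC8 arterial cells, against 70.6 CPM in WT arterial cells, and Rack1, a ribosome-bound scaffold, had 159 CPM in AC8 arterial cells, against 343 CPM in WT arterial cells. The others, Hecw2, Casp8ap2, Pcnt, Tmem64 and Ecm2, had ratios of 0.273, 0.322, 0.322, 0.344 and 0.334, from 8 to 13 UMIs each in AC8.

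**Figure D4:**
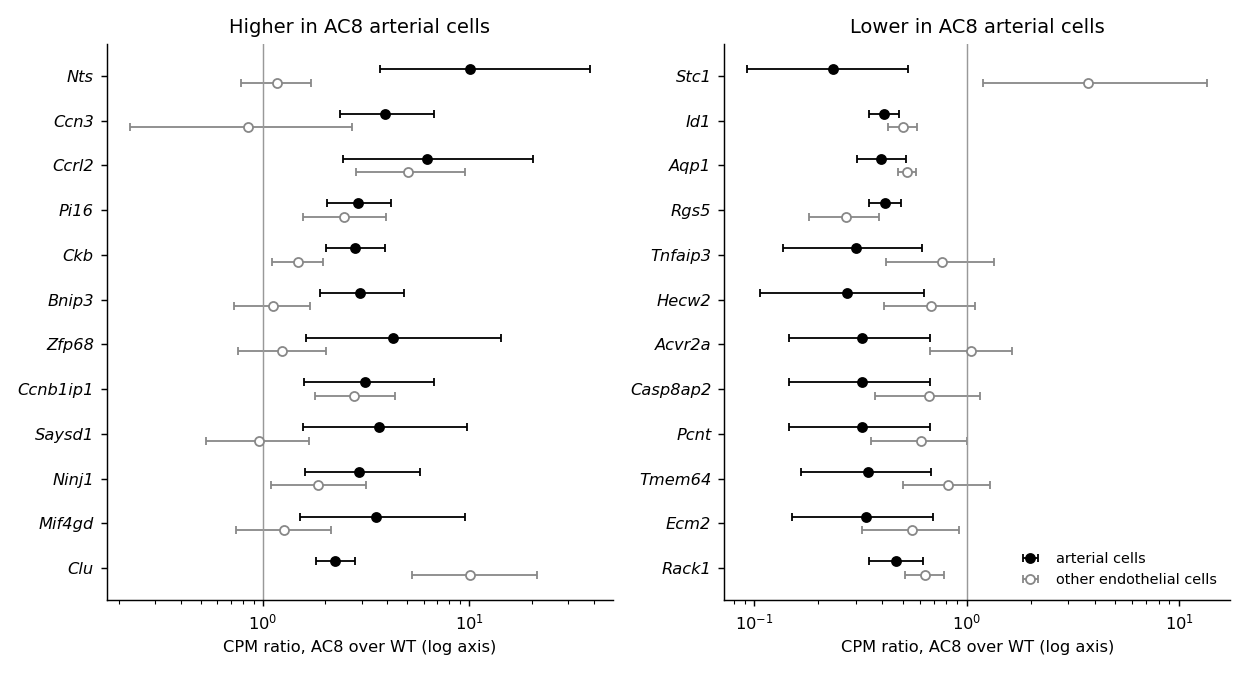
Ratio of summed CPM, AC8 over WT (log axis), for the 12 genes most raised and the 12 most lowered in AC8 arterial cells, in arterial (filled) above other endothelial cells (open), with exact 95% counting intervals. Id1 is below 1 in both sets, while Stc1 is at 0.234 in arterial and 3.70 in other cells.

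Gene lists set these single genes in their pathways, counting members with at least 20 UMIs in the 2 arterial sums. Over all 6347 such genes, 362 (5.7%) were at least 1.5-fold higher and 388 (6.11%) at least 1.5-fold lower in AC8, which is the background for the counts that follow (1.5-fold on the same log2 scale). In either direction without a threshold, 3099 of the 6347 were higher and 3248 lower in AC8. Whether a list's split differed from these shares was not tested, and genes used by the selection were left out of every list. Of the 26 arterial genes outside the selection, 12 were higher and 14 lower in AC8, with a median log2 ratio of -0.06. The 2 at least 1.5-fold higher were Clu and Edn1, the vasoconstrictor endothelin, at 147 CPM in AC8 and 83.2 CPM in WT. The 3 at least 1.5-fold lower were Igfbp3, at 190.2 CPM in AC8 and 338 CPM in WT, Vegfc, at 163 CPM in AC8 and 257 CPM in WT, and the sugar transporter family gene Slc45a4, at 22.7 CPM in AC8 and 55.4 CPM in WT. The list's median thus lay near that of all genes, -0.01, although single members differed beyond counting error.

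Of 18 measured Notch pathway genes, the selection gene Egfl7 left out, 8 were higher and 10 lower in AC8, with a median of -0.15. Among the ligands, Dll4 had 149 CPM in AC8 arterial cells, against 229 CPM in WT arterial cells, a ratio of 0.649 (95% interval 0.470 to 0.894), while Jag2 had 182 CPM in AC8 arterial cells, against 134 CPM in WT arterial cells, a ratio of 1.36 (95% interval 0.958 to 1.95), and Jag1 had 112 CPM in AC8 and 90.7 CPM in WT. The receptors Notch1 and Notch4 had ratios of 0.861 and 0.833, both with intervals that hold equality. The receptor Notch3, also on the mural list, had 45.5 CPM in AC8 and 83.2 CPM in WT, a ratio of 0.547 (95% interval 0.304 to 0.966). Notch3 and Maml2, at a ratio of 0.451 (95% interval 0.195 to 0.988), were the 2 members at least 1.5-fold lower, and 0 were past it higher. Among targets, Hes1 had 194 CPM in AC8 and 257 CPM in WT and Nrarp 174 CPM in AC8 and 214 CPM in WT. Efnb2, the membrane ligand of arterial cells, had 289 CPM in AC8 arterial cells, against 411 CPM in WT arterial cells, a ratio of 0.704 (95% interval 0.558 to 0.888), and its venous receptor Ephb4 had 205 CPM in AC8 arterial cells, against 131 CPM in WT arterial cells, a ratio of 1.56 (95% interval 1.11 to 2.23).

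Of 12 measured VEGF pathway genes, the selection gene Kdr left out, 3 were higher and 9 lower, with a median log2 ratio of -0.24 (-0.29 in other endothelial cells). The receptor Flt1 had 858 CPM in AC8 arterial cells, against 1323 CPM in WT arterial cells, a ratio of 0.648 (95% interval 0.569 to 0.739). The phosphatase Ptprb, which restrains the receptor Tek, had 1102 CPM in AC8 arterial cells, against 1555 CPM in WT arterial cells, a ratio of 0.708 (95% interval 0.630 to 0.797). Esm1, a VEGF-induced proteoglycan of tip cells, had 3 UMIs in AC8 and 19 in WT arterial cells. The 3 members at least 1.5-fold lower were Flt1, Vegfc and Esm1. Tie1 and Tek differed little, with ratios of 1.03 and 0.883.

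Semaphorins and guidance receptors were lower for 12 of 16, with a median of -0.31 (-0.15 in other endothelial cells). Sema6a had 119.9 CPM in AC8 arterial cells, against 209 CPM in WT arterial cells, Sema6d had 53.7 CPM in AC8 and 108 CPM in WT, and Sema7a 239.8 CPM in AC8 and 368 CPM in WT. The semaphorin receptor Plxnd1 had 223 CPM in AC8 and 315 CPM in WT, a ratio of 0.709 (95% interval 0.543 to 0.924). Transcription factors of endothelial identity were lower for 20 of 24, with a median of -0.17 and 0 members past 1.5-fold either way. Sox7 had 145 CPM in AC8 and 209 CPM in WT and Erg 130.2 CPM in AC8 and 184 CPM in WT, while Sox18 was higher at 897 CPM in AC8 and 683 CPM in WT.

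Flow-responsive and vasoactive genes were nearly evenly divided, with 7 higher and 8 lower of 15. Klf2 had 5391 CPM in AC8 and 5447 CPM in WT, and its ratio interval of 0.935 to 1.05 holds equality within narrow limits. Nos3, the endothelial nitric oxide synthase, had 198 CPM in AC8 arterial cells, against 134 CPM in WT arterial cells, a ratio of 1.49 (95% interval 1.05 to 2.12). Edn1 had a ratio of 1.76 (95% interval 1.15 to 2.75), and it was 5.50 (3.03 to 10.6) in other endothelial cells. Ramp3, which tunes the adrenomedullin receptor, had 78.5 CPM in AC8 and 40.3 CPM in WT, and its partner receptor Calcrl 55.8 CPM in AC8 and 90.7 CPM in WT. Of the connexins, Gja1 had 70.3 CPM in AC8 arterial cells, against 144 CPM in WT arterial cells, a ratio of 0.489 (95% interval 0.310 to 0.761), while Gja4 and Gja5 had ratios of 1.25 (95% interval 0.870 to 1.82) and 0.794 (95% interval 0.469 to 1.34).

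Elastic fibre and basement membrane genes were also divided, 10 higher and 12 lower of 22. Fbln5 had a ratio of 1.13, Eln 0.780, Mgp 0.801 and the collagen gene Col4a1 0.886, and each interval holds equality. Vwa1, a perlecan-binding matrix protein gene, was the member past 1.5-fold, at 145 CPM in AC8 and 73.1 CPM in WT. Capillary genes inside the arterial cells were lower for 11 of 16, with a median of -0.17 (-0.29 in other endothelial cells). Fabp4 had 8987 CPM in AC8 arterial cells, against 12975 CPM in WT arterial cells, a ratio of 0.693 (95% interval 0.665 to 0.721). Rbp7, a member of the arterial list, had 736 CPM in AC8 arterial cells, against 1023 CPM in WT arterial cells, a ratio of 0.719 (95% interval 0.622 to 0.831).

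BMP and TGF-beta receptor genes with the Id family were divided, 9 higher and 8 lower of 17. Id1 was the member farthest from WT, but Id3, its close relative, was higher at 2664 CPM in AC8 and 2021 CPM in WT, a ratio of 1.32 (95% interval 1.21 to 1.44). Smad6, an inhibitory Smad, had 155 CPM in AC8 arterial cells, against 90.7 CPM in WT arterial cells, and the signal-carrying Smad1 47.5 CPM in AC8 and 98.3 CPM in WT. The ligand Bmp6 had 74.4 CPM in AC8 and 32.8 CPM in WT and the co-receptor Eng 1612 CPM in AC8 and 1235 CPM in WT. In other endothelial cells the ratios of Id1, Id3, Smad6 and Smad1 were 0.498, 1.21, 2.05 and 0.556, each on the same side of 1 as in arterial cells.

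Glycolysis and hypoxia genes were higher in AC8 for 13 of 15, with a median of 0.21 (0.13 in other endothelial cells, and 0.40 in arterial cells without mural or leukocyte UMIs). The glycolytic enzymes Aldoa, Gapdh, Pkm and Ldha had ratios of 1.51 (95% interval 1.25 to 1.82), 1.44 (95% interval 1.24 to 1.68), 1.59 (95% interval 1.19 to 2.16) and 1.26. In other endothelial cells the same 4 had ratios of 1.63, 1.37, 1.58 and 1.40, so they were higher in both sets. The phosphofructokinase gene Pfkl had 74.4 CPM in AC8 and 32.8 CPM in WT, and the regulator Hif1a 119.9 CPM in AC8 and 111 CPM in WT. The 3 members past 1.5-fold were Bnip3, Pkm and Pfkl, and Aldoa stood just below on the log2 scale used.

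The series title names RelA, the NF-kB subunit, and inflammation. Rela itself had 105 CPM in AC8 arterial cells, against 95.8 CPM in WT arterial cells, a ratio of 1.10 (95% interval 0.709 to 1.72), and Nfkbia, the inhibitor that NF-kB induces, 1009 CPM in AC8 and 940.1 CPM in WT. Of 23 measured NF-kB target genes, 8 were higher and 15 lower, with a median of -0.06 (0.22 in other endothelial cells), and 4 were past 1.5-fold each way. Ier3, a survival gene, had 1275 CPM in AC8 arterial cells, against 620.0 CPM in WT arterial cells and was the higher member with the most UMIs, in 153 AC8 and 115 WT cells. The chemokine genes Ccl2 and Cxcl2 were higher too, but their UMIs lay in 6 AC8 and 3 WT cells and 16 AC8 and 2 WT cells. The adhesion molecule Icam1 had 107 CPM in AC8 and 151 CPM in WT, and the UMIs of Vcam1, 39.3 CPM in AC8 and 106 CPM in WT, lay in 8 AC8 and 6 WT cells. More of these genes were lower than higher in AC8 arterial cells.

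Leukocyte RNA moved with the genotype beside these values. Of 9 measured leukocyte genes, 8 were higher in AC8 arterial cells, with a median log2 ratio of 1.47. Lyz2 had 391 CPM in AC8 and 106 CPM in WT, in 58 AC8 and 27 WT cells. Any UMI of Cd79a, C1qa, C1qb, C1qc, Cd3e or Lyz2 was present in 30.4% of AC8 and 15.9% of WT arterial cells. Cells without endothelial UMIs also held more of the 13 genes in AC8 (24839 CPM) than in WT (16324 CPM). The part of this RNA in the chemokine values was not tested.

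Type I interferon response genes were higher for 21 of 35, with a median of 0.11 (0.08 in other endothelial cells). Rsad2, an antiviral enzyme, had 229 CPM in AC8 arterial cells, against 121 CPM in WT arterial cells, a ratio of 1.90 (95% interval 1.34 to 2.72), and Irf7, a transcription factor of the response, had 188 CPM in AC8 and 103 CPM in WT. Isg15 had 626 CPM in AC8 and 459 CPM in WT and Ifit3 134 CPM in AC8 and 75.6 CPM in WT. Ifi27l2a had 225 CPM in AC8 and 70.6 CPM in WT, and cells without endothelial UMIs had 2311 CPM in AC8 and 1243 CPM in WT. Of the members, 6 were past 1.5-fold higher and 1, the RNA sensor Ddx58, past it lower, at 47.5 CPM in AC8 and 88.2 CPM in WT. MHC class I genes differed little, with 11 higher and 6 lower of 17, a median of 0.04 and 0 past 1.5-fold.

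Cyclic AMP machinery, the pathway of the overexpressed enzyme, was divided 10 higher and 9 lower of 19, with a median of 0.03. The adenylyl cyclase Adcy4 had 184 CPM in AC8 and 151 CPM in WT and Adcy6 35.1 CPM in AC8 and 47.9 CPM in WT. Prkaca, a catalytic subunit of protein kinase A, had 72.3 CPM in AC8 arterial cells, against 32.8 CPM in WT arterial cells, a ratio of 2.21 (95% interval 1.14 to 4.55). Rapgef3, a cyclic AMP sensor that strengthens the endothelial barrier, had 90.9 CPM in AC8 arterial cells, against 146 CPM in WT arterial cells, a ratio of 0.622 (95% interval 0.411 to 0.937). The Gs subunit Gnas had 1891 CPM in AC8 and 1797 CPM in WT.

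Immediate-early genes, high in arterial cells of both libraries, were 8 higher and 12 lower of 20 between genotypes, with a median of -0.09. Fos had 5405 CPM in AC8 and 5699 CPM in WT and Jun 4984 CPM in AC8 and 5031 CPM in WT, while Junb was higher at 5591 CPM in AC8 and 4199 CPM in WT and the antiproliferative gene Btg2 lower at 1289.8 CPM in AC8 and 2049 CPM in WT. Heat shock genes were 7 higher and 9 lower of 16, with a median of -0.01. Dnaja1, a chaperone partner, had 959 CPM in AC8 arterial cells, against 1454 CPM in WT arterial cells, and Hsph1 147 CPM in AC8 and 277 CPM in WT. Of the secreted signals, Cxcl12 had 4359 CPM in AC8 and 4289.7 CPM in WT, and Kitl, the ligand of the receptor Kit, had 752 CPM in AC8 arterial cells, against 1089 CPM in WT arterial cells, a ratio of 0.691 (95% interval 0.599 to 0.796).

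Lists of other cell types and functions were read the same way, and several rest on few cells. All 4 measured erythroid genes were at least 1.5-fold lower in AC8, and the 5 listed ones, Alas2 included, summed to 1232 CPM in AC8 and 2687 CPM in WT arterial cells, in at most 10 cells for each gene. All 7 measured cardiomyocyte genes were lower in AC8, with a median of -0.26, but each interval holds equality. Tnnt2 among them was nearly equal, at 80.6 CPM in AC8 and 80.7 CPM in WT. Myh6, left out by the count filter, was higher, with 13 UMIs in AC8 and 1 in WT, a ratio of 10.7 (1.60 to 453). Of the other genes left out, Nppa was higher and Mb and Ryr2 lower, each with an interval that holds equality. The 2 fibroblast genes outside the selection, Col1a2 and Gsn, were lower in AC8, also within counting error. Venous genes were 6 higher and 3 lower, endocardial genes 1 and 2, lymphatic genes 1 and 1, and the 1 measured Schwann cell gene was lower. MHC class II genes were 2 higher and 4 lower of 6, chemokines and cytokines 9 and 8 of 17, leukocyte adhesion molecules 5 and 4 of 9, and coagulation genes 5 and 4 of 9. Lipid and nutrient transport genes were 6 higher and 10 lower of 16, junction genes 8 and 4 of 12, cell cycle genes 2 and 1 of 3, and dissociation genes 9 and 8 of 17. Medians of these function lists lay between -0.14 and 0.16.

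**Figure D5:**
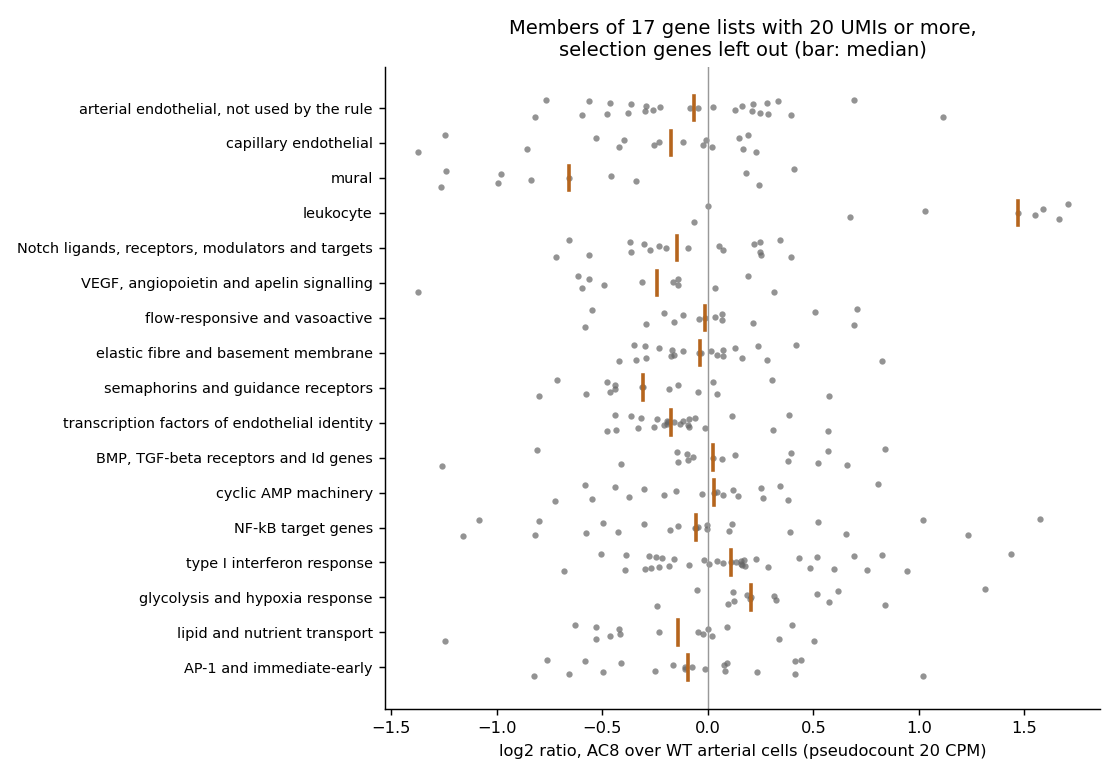
Log2 ratio of AC8 over WT arterial cells (pseudocount 20 CPM) for each member of 17 lists with 20 UMIs or more outside the selection genes (points), and the list's median (bar). The leukocyte median lies at 1.47 and the mural median at -0.66, while the arterial list lies at -0.06.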

How the data were processed

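Sorted cardiac cells of pooled AC8 and WT mice were profiled on the 10x Genomics platform, 1 library each. The authors deposited raw UMI counts per gene and cell, made with Cell Ranger (version not given) on build mm10, per the submitters' processing notes. Every deposited cell has 500 UMIs or more. The cell files hold running numbers in place of barcodes, so barcodes shared by the libraries could not be counted; 0 arterial cells had identical counts in both. Doublets were not called, and cells were not clustered.

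The members and gene lists were chosen with earlier results of these data known. Raw counts were summed over the arterial cells of each library and scaled to CPM, counts per 1000000 UMIs. Log2 ratios used a pseudocount of 20 CPM, which understates the change of low genes. Genes with at least 30 UMIs over both arterial sums were compared between genotypes (20 over the same sums in lists). Ratios carry exact binomial intervals, levels exact Poisson intervals and shares exact Clopper-Pearson intervals, all at 95%. With 1 library per genotype no p-value was computed. Named AC8 and WT differences are the 12 highest and 12 lowest log2 ratios with UMIs in at least 10 arterial cells of whichever library was higher. That library's level also had to reach 20% of its level in cells without endothelial UMIs. Mitochondrial, ribosomal protein, hemoglobin and sex-dosage genes, unnamed gene models and the selection genes were left out. Named arterial against other endothelial differences are the 12 highest and 12 lowest by the smaller of the 2 libraries' ratios. Higher genes there needed 30 UMIs over the 2 arterial sums, and lower genes 30 over the 2 other endothelial sums. In each of 34 lists, of 22 functions and 12 cell types, the highest members and those 1.5-fold apart could be named. Thinning drew UMIs without replacement. Gene positions were matched by symbol for 22039 of 22441 symbols. The ratios and their intervals were tested on simulated counts, and thinning was checked on deposited WT cells for its fixed total only.

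Alternatives changed the cell filters, marker threshold, depth, pseudocount, count filter, scaling and comparison cells. The software was matplotlib 3.10.9, pandas 2.3.3, scipy 1.17.1, numpy 2.4.6 and Python 3.11.15.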

Additional observations from a re-analysis of the deposited data

Results flagged for a closer look

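Of 4820 genes with at least 30 UMIs in both arterial and other endothelial cells, 11 had AC8 over WT ratios on opposite sides of 1 in the 2 sets, each beyond its own counting interval. The difference between the sets was not tested, since each genotype had 1 library. The log2 ratio given is that in arterial cells.

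Higher in AC8 among arterial cells and lower among other endothelial cells were 4 genes. Cav1, the caveolar coat protein of capillary endothelium, had a log2 ratio of 0.228, with 1978 CPM in AC8 and 1686 CPM in WT arterial cells, against 1617 CPM in AC8 and 1980.4 CPM in WT other endothelial cells. Dedd, a death-effector domain gene, had 0.868, with 57.9 CPM in AC8 and 22.7 CPM in WT arterial cells, against 18.3 CPM in AC8 and 38.1 CPM in WT other endothelial cells. Igfbp5 had 1.21, but its UMIs lay in 9 AC8 and 7 WT cells, and Lyve1, a lymphatic and macrophage gene, had 1.82, with UMIs in 4 AC8 and 2 WT cells.

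Lower in AC8 among arterial cells and higher among other endothelial cells were 7 genes. Rapgef3, the cyclic AMP sensor, had a log2 ratio of -0.583, with 90.9 CPM in AC8 and 146 CPM in WT arterial cells, against 192 CPM in AC8 and 141 CPM in WT other endothelial cells. Hbegf, a growth factor of the EGF family, had -0.61, with 97.2 CPM in AC8 and 159 CPM in WT arterial cells, against 82.4 CPM in AC8 and 51.1 CPM in WT other endothelial cells. Abca1, the cholesterol exporter, had -0.63, with 43.4 CPM in AC8 and 78.1 CPM in WT arterial cells, against 56.8 CPM in AC8 and 30.5 CPM in WT other endothelial cells. Birc3, an NF-kB target that restrains cell death, had -0.799, with 24.8 CPM in AC8 and 58.0 CPM in WT arterial cells, against 58.6 CPM in AC8 and 29.4 CPM in WT other endothelial cells. Vcam1 had -1.09, with arterial UMIs in 8 AC8 and 6 WT cells. Dusp1, an immediate-early phosphatase, had -0.11, and the metallothionein Mt1 had -0.376.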

How the results depend on the processing

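Each result was recomputed with 1 choice changed at a time. No paired analysis was possible because each genotype has 1 library, and for the same reason no replicate could be left out. The AC8 minus WT difference in arterial share stayed positive under every alternative. It was 6.36 points with a threshold of 3 marker UMIs and 3.78 points with cells thinned to 500 UMIs. Among alternatives added after seeing the data it was 7.47 points without Stmn2, 6.49 without Sox17 and 7.15 with cells thinned to 1000 UMIs. The counts of genes 2-fold apart followed the pseudocount and the filter. Of AC8 higher genes there were 108 with 5 CPM, 16 with 50 CPM, 23 with 60 UMIs or more and 20 after thinning to 500, against 42. Of AC8 lower genes there were 74 with 5 CPM, 9 with 50 CPM, 12 with 60 UMIs, 39 with 15 UMIs, 36 in cells of 1000 UMIs or more and 40 with 3 marker UMIs, against 23. Of genes higher in arterial cells there were 33 with 1 marker UMI, 17 after thinning and 32 with 50 CPM, against 66. Of genes lower in arterial cells there were 32 in cells of 1000 UMIs or more, 44 with 3 marker UMIs, 5 with 1, 52 after thinning, 31 without the deepest 5% of cells, 72 with 5 CPM, 4 with 50 CPM and 33 against depth-matched cells, against 17. Of single genes and list medians, 836 values moved little, 107 moved and 8 reversed. Those that reversed were Tnfaip3 at 0.41 with 3 marker UMIs, the junction list with Cdh5, a selection gene, at -0.058 after thinning, Acta2 at -0.98 and Tagln at -0.61 after thinning, and Acta2 at -0.34, Tagln at -0.29, Rgs1 at 0.25 and Ccl3 at 0.24 without cells holding mural or leukocyte UMIs. After thinning to 500 UMIs the AC8 over WT log2 ratio was -0.04 for Aqp1, -0.36 for Rgs5, 0.47 for Pi16 and 0.80 for Ccn3. With 1 marker UMI it was 0.54 for Zfp68 and -0.28 for Acvr2a, and with 3 the MHC class II median was 2.06. Where no alternative's construction shows it, the cause was not tested. Depth limits low genes most: 3 counts equal 6.20 CPM in AC8 and 7.56 CPM in WT arterial cells.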

Other observations

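Over all endothelial cells, the kinase Bmx stood at 27.4 CPM in AC8 against 10.8 CPM in WT. The phosphatase Alpl stood at 201 CPM in AC8 against 131 CPM in WT. Both are arterial genes that took no part in the selection. Glul was at 407 CPM in AC8 against 319 CPM in WT. It is not on the arterial list and was named from the contrast of arterial with other endothelial cells. Efnb2 stood at 232 CPM in AC8 and 249 CPM in WT, and the general endothelial gene Pecam1 at 1136 CPM in AC8 and 1117 CPM in WT.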
